A study of Mus musculus with 44 samples.

Results

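The comparison described here set the m6A peaks called in livers of mice given Aroclor1260 against those called in livers of mice given vehicle, both on a high-fat diet. It used 22 of the 44 libraries of the series and 5299 of its 17573 deposited peaks. The peaks were chosen by treatment: both Aroclor1260 lists and both vehicle control lists were taken, and each Aroclor1260 list was set against the control list called with the same reference. A peak counted as shared where its span and that of a peak of the other list had 1 bp or more in common, with chromosome and strand alike.

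All animals were male C57Bl/6J mice on a diet with 42% of energy from fat, so the controls carried the diet too. The Aroclor1260 group received Aroclor1260 by mouth once, at week 2 of a study of 12 weeks, and the control group received the vehicle. The PCB126 group and the group given Aroclor1260 with PCB126, called the combination here, were used only to set the Aroclor1260 values beside. Each treatment had 5 m6A immunoprecipitates, 5 input libraries and 1 IgG immunoprecipitate labelled as a pool. No dose is stated in the sources used here.

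N6-methyladenosine (m6A) is a methyl mark that a writer complex built around METTL3 and METTL14 places on messenger RNA, mostly near stop codons and in 3′ untranslated regions. Reader proteins of the YTH family bind the mark and affect the decay, translation and export of the RNA, and the demethylases FTO and ALKBH5 can remove it. In MeRIP, RNA fragments are pulled down with an antibody against m6A, and a peak is a stretch of transcript with more immunoprecipitated fragments than a reference library. Aroclor1260, a technical blend of biphenyls rich in chlorine, activates the nuclear receptors CAR and PXR in liver more than the aryl hydrocarbon receptor (AhR), whereas PCB126 is a dioxin-like congener that activates AhR.

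The files hold 1 list for each treatment and reference, from which a call over all libraries of the treatment is inferred, and the lists give no value for a single library. These lists thus carry no spread between the 5 libraries of a group, and no test across animals was made. Intervals given below cover counting error over peaks only, and the read depth behind the lists is unknown. In these lists a change in m6A, a change in the amount of a transcript and a difference in depth cannot be told apart, nor, in bulk liver, can fewer cells of a type and less RNA per cell.

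A few peaks lay over the very start of a transcript, where the RefSeq promoter table of GRCm38.p6 (the build of the files, mm10) gives the sequence. With input as reference, 5 of the 506 Aroclor1260 peaks and 6 of the 620 control peaks covered at least 20 of the first 50 bases of a transcript. With IgG as reference, 13 Aroclor1260 peaks and 19 control peaks did so. The 3 starts below were held in different ways by the lists. Capitals mark the bases that lie inside a called peak of the gene named. Each line gives the first 30 bases of the transcript on the plus strand.
Amotl2, chr9:102717804-102717833: AAGCAGATCATCGGCGCCACCGACTAGTGC
Apob, chr12:7977677-7977706: tacctgcctgagctccgcctcCGAAGACCC
Golph3, chr15:12321496-12321525: ctgGGCTGTGTGGGGGGCCACAGCCGCGGG
The Amotl2 start was inside a peak of all 4 lists, with folds of 1.33 after Aroclor1260 and 1.5 in control against input, and 2.4 after Aroclor1260 and 4.00 in control against IgG. At Apob, for apolipoprotein B, the first bases lay outside every peak, and a peak that began within the printed bases was held by the Aroclor1260 IgG list and both control lists and not by the Aroclor1260 input list. At Golph3 a peak that began within the first bases was held by both control lists, with folds of 1.40 against input and 1.80 against IgG, and by neither Aroclor1260 list. The first 50 bases of the 9 starts called against input were searched on the transcript strand for 4 forms of the m6A consensus, and none was found. Of the 32851 RefSeq starts in the table, 5.76% hold the form GGACT there, 5.40% hold GGACA, 5.13% hold GGACC, 5.14% hold AGACT and 19.9% hold at least 1 of them. A motif absent from this window says nothing of m6A at the start.

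Against input, the Aroclor1260 list held 506 peaks at 238 loci and the control list 620 peaks at 266 loci. A locus is an identifier of the files, or several on 1 strand joined under 1 RefSeq name. Against IgG the lists held 2082 peaks at 626 loci after Aroclor1260 and 2091 peaks at 622 loci in control. The lists resembled each other in shape. The median exonic width of a peak against input was 200 bp after Aroclor1260 and 201 bp in control. The last 20% of the gene held 47.2% of the placed Aroclor1260 peaks and 46.6% of the placed control peaks. The fold enrichment of each peak is the authors' own ratio of m6A over reference, and its median against input was 2.13 after Aroclor1260 and 2.32 in control.

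Many peaks were held by only 1 of the lists. Of the 506 Aroclor1260 peaks against input, 184 (36.4%, 95% Wilson interval 32.3 to 40.6) had no counterpart in the control list and are called gained. Of the 620 control peaks against input, 310 (50%, 46.1 to 53.9) had no counterpart after Aroclor1260 and are called lost. Against IgG, 856 of 2082 Aroclor1260 peaks (41.1%, 39.0 to 43.2) were gained and 903 of 2091 control peaks (43.2%, 41.1 to 45.3) were lost. Counted in exonic bases, the input lists shared 106566 bases, which was 68.7% of the bases of the Aroclor1260 list and 52.3% of those of the control list.

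Against input the unshared peaks had lower median folds and widths than the shared ones. There, gained peaks had a median fold of 1.65 and a median width of 150 bp, while the 322 shared Aroclor1260 peaks had a median fold of 2.49 and a width of 250 bp. Lost control peaks had a median fold of 2.00 and a width of 150 bp, while the 310 shared control peaks had 2.86 and 300 bp. Against input the share found in the other list was higher at higher folds: it was 88.2% among the 25% of Aroclor1260 peaks with the highest folds and 40.9% among the 25% with the lowest, and it was 69.7% among the 25% of control peaks with the highest folds and 34.8% among those with the lowest. Against IgG this held less evenly. Gained peaks had a median fold of 2.33 and shared Aroclor1260 peaks 3.00, while lost and shared control peaks had 2.60 and 2.90. From the lowest to the highest folds, the share of control peaks found against IgG was 56.6%, 49.3%, 53.3% and 68.1%. Against input, lost and gained peaks were mostly at whole loci: 128 of the 184 gained peaks (69.6%) lay at loci with no control peak at all against input, and 235 of the 310 lost peaks (75.8%) at loci with no Aroclor1260 peak.

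**Figure D1:**
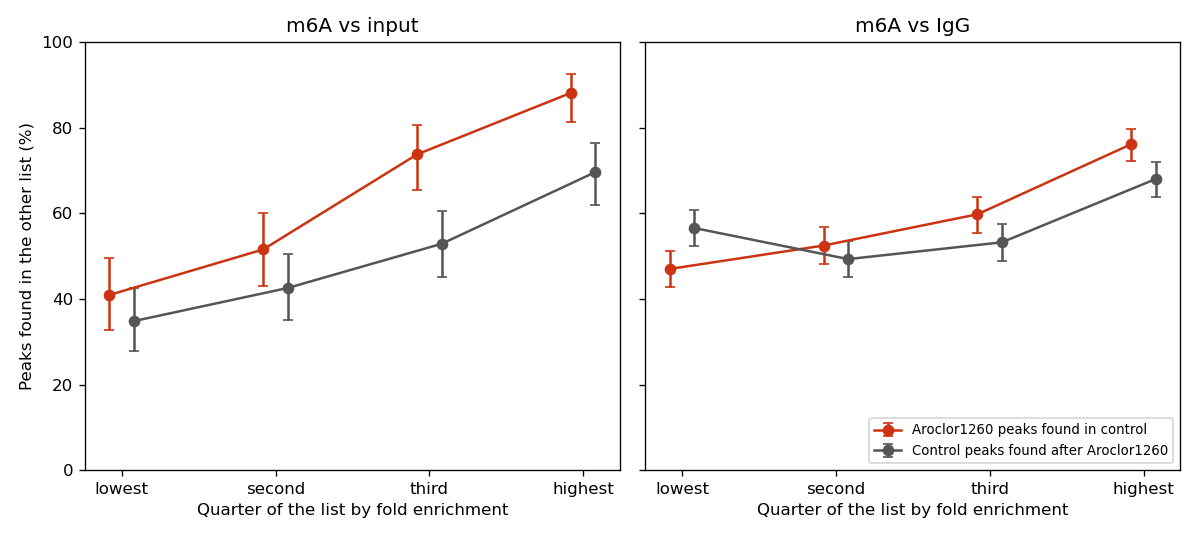
Share of peaks found in the other list (y axis, percent) by rank of fold enrichment within the list, in 4 bins of equal size (x axis), for Aroclor1260 peaks found in control and control peaks found after Aroclor1260, against input (left) and against IgG (right). Points are shares and bars 95% Wilson intervals, which cover counting error only; against input the share was 88.2% of the Aroclor1260 peaks and 69.7% of the control peaks in the bin of highest folds.

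Many of these calls differed between the references, whose lists were of unequal length. Of the 184 peaks gained against input, 119 (64.7%, 57.5 to 71.2) overlapped a control peak called against IgG. Of the 310 peaks lost against input, 164 (52.9%, 47.3 to 58.4) overlapped an Aroclor1260 peak called against IgG. In the other direction, 29 of the 856 peaks gained against IgG (3.39%) overlapped a control peak called against input. Of the 903 peaks lost against IgG, 32 (3.54%) overlapped an Aroclor1260 peak called against input. The IgG lists were the longer ones, and the cause of these differences was not tested. When the peaks of the 4 lists were merged into regions, 218 regions were held by all 4 lists, 38 by both Aroclor1260 lists and neither control list, and 72 by both control lists and neither Aroclor1260 list. Of the 38 regions gained with both references, 17 lay at loci with no control peak in either list and 21 at loci that kept other control peaks. Of the 72 regions lost with both references, 46 lay at loci with no Aroclor1260 peak and 26 at loci that had others.

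**Figure D2:**
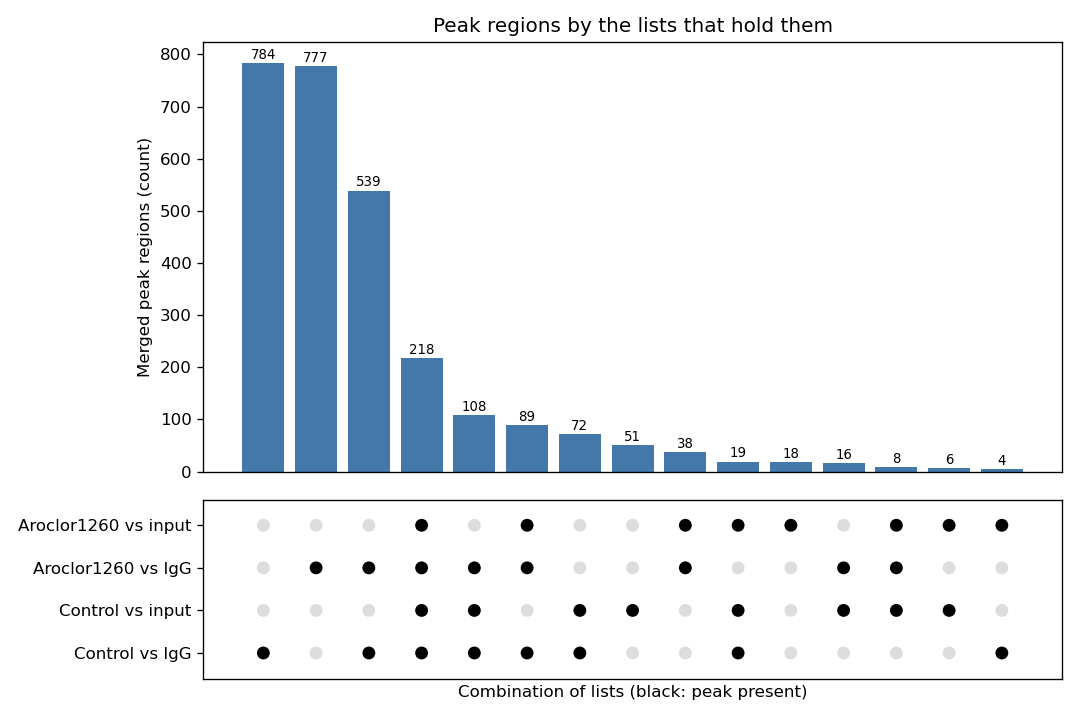
Number of merged peak regions (y axis, count) for each combination of the 4 lists that hold them (x axis); black dots below a bar mark the lists with a peak. The 784 regions of the control IgG list alone and the 777 of the Aroclor1260 IgG list alone were the most numerous, and 218 regions stood in all 4 lists.

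At the level of loci, 70 of the 336 loci with a peak in either input list had one only after Aroclor1260 (percent called 20.8) and 98 had one only in control (percent called 29.2). Against IgG the counts were 191 gained (23.5) and 187 lost (23) of 813 loci. Both references gave the same call for 15 gained loci (1.78% of the 841 loci that any of the 4 lists covers) and for 26 lost loci (3.09%). Among the 70 loci gained against input, 47 had peaks in both IgG lists, 7 had none in either and 1 was lost against IgG. Among the 98 lost against input, 47 had peaks in both IgG lists, 18 had none in either and 7 were gained against IgG.

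The 15 loci gained with both references included Tnfrsf1a, Mcl1 and Dap of the TNF and cell death list and G6pc and Txnip of the glucose list. The strongest was Znhit2, which encodes a zinc finger protein that takes part in assembly of large complexes, with 1 peak at chr19:6062127-6062324. Its fold was 3.86 against input and 7.70 against IgG after Aroclor1260, and neither control list held a peak there. Tnfrsf1a, the main receptor for tumour necrosis factor, had a peak at chr6:125361837-125362036 with a fold of 2.84 and a false discovery rate of 7.41e-05 after Aroclor1260, and 3 IgG peaks of up to 4.52. Control had no Tnfrsf1a peak with either reference. PCB126 and the combination had none against input, but each had 4 IgG peaks, of up to 4.84 and 7.45. Txnip, which restrains glucose uptake and binds thioredoxin, had a peak at chr3:96560743-96560842 with a fold of 2.84, and 3 IgG peaks of up to 5.05. Control had no peak at Txnip.

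Mcl1, an inhibitor of mitochondrial apoptosis, had 2 input peaks of up to 2.21 and 3 IgG peaks of up to 5.60 after Aroclor1260 and none in control. G6pc, the glucose-6-phosphatase that releases glucose from hepatocytes, had 1 input peak of 2.11 at chr11:101376623-101376770 and 3 IgG peaks of up to 4.91, and none in control. Cbx2, a Polycomb protein, had 2 input peaks of up to 2.00 and 3 IgG peaks of up to 3.00. Dap, a death-associated protein, had 2 input peaks of up to 1.61 and 3 IgG peaks of up to 2.37. At the strongest input peak the false discovery rate was 0.00102 for Mcl1, 0.0055 for G6pc, 0.0107 for Cbx2 and 1.15e-06 for Dap. Cbx2 and Dap had no peak in the control lists, nor in any list of PCB126 or the combination. Lower folds against input were seen at Sf3b5, a splicing factor subunit, with 1.61, at Id3, an inhibitor of helix-loop-helix factors, with 1.60, and at Gchfr, a regulator of tetrahydrobiopterin synthesis, with 1.23. The remaining 5 were ENSMUSG00000091393 with 2.80, Gm17586 with 1.75, ENSMUSG00000086149 with 1.68, and minus-strand identifiers at Zfp703 with 2.14 and at Bcl9l with 1.54. No role is given here for these identifiers, of which the last pair lies at genes with no strand in the RefSeq source used.

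The 26 loci lost with both references included the hepatocyte factors Onecut2 and Foxq1, the cytokine receptors Lifr and Ifngr1 and the transporter Slco1b2. Depp1, a stress-induced protein under control of FoxO factors, had a control peak at chr6:116651776-116652406 with folds of 11.3 against input and 41.0 against IgG. No Aroclor1260 peak was called there with either reference. Tnfsf10, the death ligand TRAIL, had a control peak at chr3:27335368-27335815 with folds of 7.29 and 11.8. Zcchc2, a zinc finger gene, had 2 input peaks of up to 6.65 and 6 IgG peaks of up to 38.0 in control. Epm2aip1, which binds laforin and acts on glycogen synthase, had 5 input peaks of up to 6.20 and 4 IgG peaks of up to 6.60 in control. None of these loci had a peak in either Aroclor1260 list.

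Lifr, the receptor for leukaemia inhibitory factor that signals with gp130, had 1 control peak of 5.80 against input at chr15:7190655-7191453 and 2 of up to 10.6 against IgG. Ifngr1, a chain of the interferon gamma receptor, had 1 control peak of 2.67 against input and 1 of 6.80 against IgG. Onecut2, a transcription factor of hepatocyte development, had 6 input peaks of up to 5.79 and 8 IgG peaks of up to 12.6 in control, the most peaks of any of these loci. Foxq1, a forkhead factor, had 4 input peaks of up to 2.23 and 3 IgG peaks of up to 4.2 in control, on the plus strand. A minus-strand identifier at Foxq1 had peaks in both treatments with each reference. Its highest paired folds were 1.64 after Aroclor1260 and 1.56 in control against input, and 2.5 and 1.87 against IgG. Slco1b2, the hepatocyte transporter that takes up bile acids and drugs, had 4 input peaks of up to 3.61 and 5 IgG peaks of up to 2.75. Spry1, an inhibitor of receptor tyrosine kinase signalling, had 3 of up to 3.44 and 3 of up to 6.40. Apart from the minus-strand identifier at Foxq1, all of these were at 0 peaks in both Aroclor1260 lists.

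The other lost loci ranged in control input fold from 7.13 down to 1.21. They comprised ENSMUSG00000093662 with 7.13, the nucleic acid binding protein gene Purg with 6.00, the cyclophilin gene Ppig with 5.67 over 4 peaks, the diphthamide synthesis gene Dph7 with 5.67, and the zinc finger gene Zbtb10 with 5.44. Next came Kbtbd7, an adaptor of cullin 3 ubiquitin ligase, with 4.60, Omd, an extracellular matrix protein, with 3.80, ENSMUSG00000092187 with 3.71, Slf2, which works with the SMC5/6 complex, with 3.11, and Zfp655 with 2.96. The lowest folds were those of 4632415L05Rik with 2.62, the nuclear noncoding RNA Malat1 with 2.25, the deubiquitinase Mindy1 with 2.11, Pigf of the GPI anchor pathway with 2.00, the chaperone Mesd with 2.00 and the mitochondrially encoded oxidase subunit COX1 with 1.21.

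**Figure D3:**
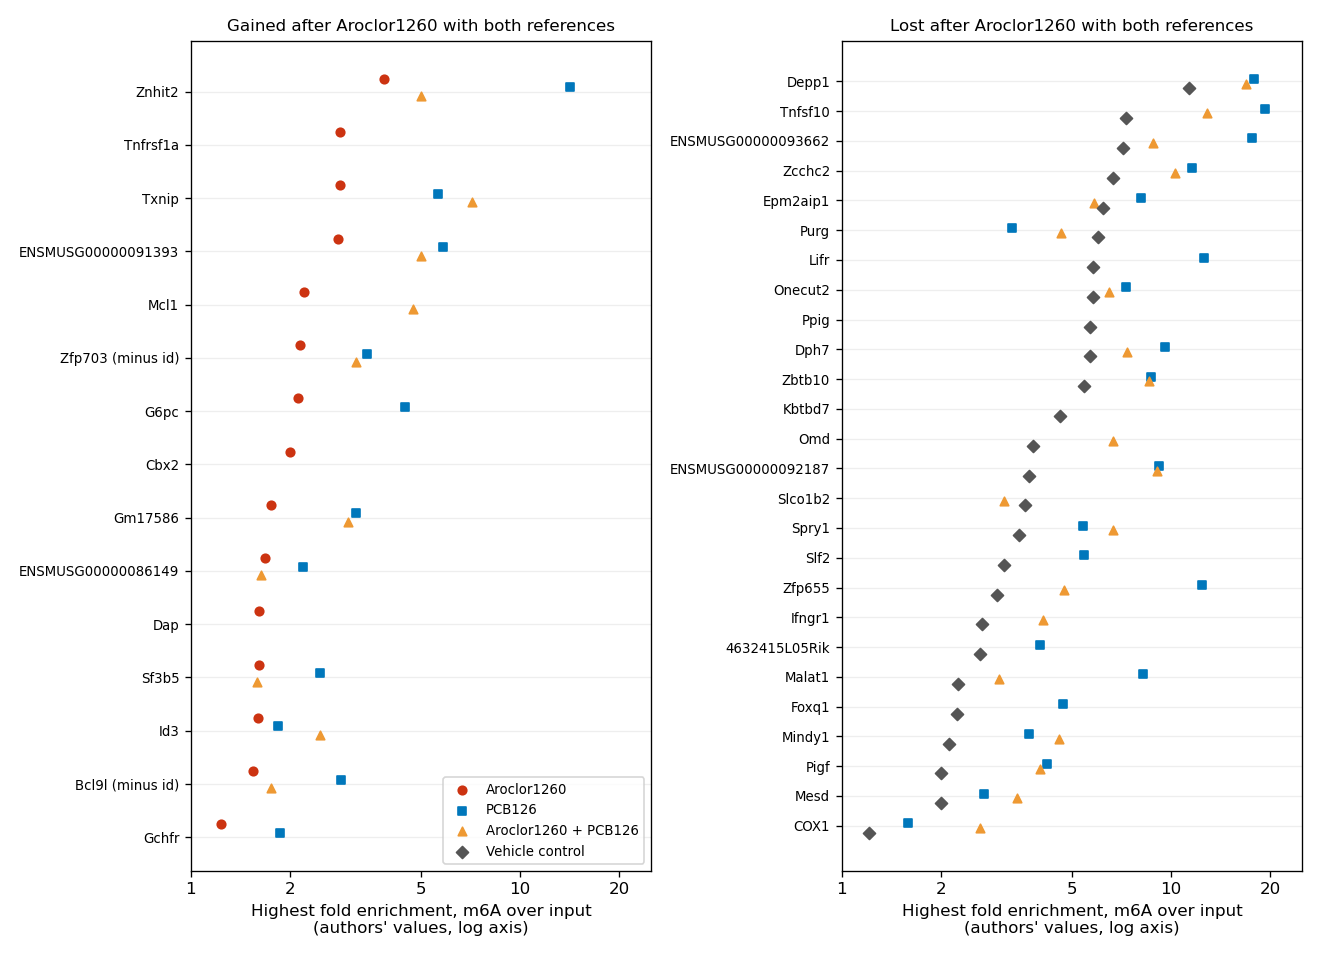
Highest fold enrichment against input (x axis, log scale, the authors' values) at the 15 loci gained (left) and the 26 loci lost (right) after Aroclor1260 with both references. Symbols stand for Aroclor1260, PCB126, the combination (Aroclor1260 + PCB126) and vehicle control, and a missing symbol means that the input list held no peak. Tnfrsf1a, Cbx2 and Dap carry an Aroclor1260 symbol alone, but Tnfrsf1a had IgG peaks after PCB126 and the combination.

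The values of these loci in the other exposures are side by side only, since all exposures were set against the same control lists. For Znhit2 the input fold was 3.86 with Aroclor1260, 14.2 with PCB126 and 5.00 with the combination. For Txnip it was 2.84 with Aroclor1260, 5.65 with PCB126 and 7.14 with the combination. G6pc had 2.11 after Aroclor1260, 4.46 after PCB126 and no peak after the combination, and Mcl1 had 2.21 after Aroclor1260, no input peak after PCB126 and 4.73 after the combination. At the lost loci, Depp1 had no Aroclor1260 peak, 17.9 after PCB126, 16.9 after the combination and 11.3 in control. Tnfsf10 had no Aroclor1260 peak, 19.3 after PCB126, 12.9 after the combination and 7.29 in control. Onecut2 had no Aroclor1260 peak, 7.31 after PCB126, 6.50 after the combination and 5.79 in control. These 3 lost loci thus had an input peak in each list but that of Aroclor1260. Other lost loci differed. Ppig and Kbtbd7 had no input peak after PCB126 or the combination. Slco1b2, Ifngr1 and Omd had none after PCB126, and Lifr, Foxq1, Slf2 and 4632415L05Rik had none after the combination. Against IgG, several of these had peaks. Ppig had IgG folds of up to 7.1 after PCB126 and 8.8 after the combination. Kbtbd7 had up to 5.2 after the combination and no IgG peak after PCB126. Slco1b2 had up to 4 and Ifngr1 up to 5.1 after PCB126, and Lifr up to 11.4 after the combination. Omd had no IgG peak after PCB126, nor had Foxq1 (plus strand), Slf2 and 4632415L05Rik after the combination.

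The share of control peaks found was smaller after Aroclor1260 than after the other exposures, in lists of unequal length. Against input, 50% of the 620 control peaks were found in the Aroclor1260 list, 88.2% in that of PCB126 and 87.4% in that of the combination. The difference was -38.2 percentage points (95% interval -42.4 to -34.1) for Aroclor1260 minus PCB126 and -37.4 (-41.7 to -33.2) for Aroclor1260 minus the combination. The PCB126 list held 2178 peaks and the combination list 2284, against 506 after Aroclor1260. When each list was cut to an equal number of peaks by p-value, the difference turned round, to 24.1 points (18.5 to 29.7) against PCB126 and 30.4 (24.8 to 36.0) against the combination. With an overlap of 50% required both ways it was -10.3 and -14.4 points.

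Where both lists held a peak, their folds ran in parallel. Against input, 233 peaks matched 1 to 1, and 67 of these pairs had the same span in both lists. The median fold of the pairs was 2.44 after Aroclor1260 and 2.77 in control, and across the pairs Spearman's rho was 0.871 and Pearson's r of the log2 folds 0.910. Against IgG, 707 pairs had medians of 2.84 after Aroclor1260 and 2.80 in control, with rho 0.648 and r 0.723. The pairs share gene models, caller and sequence between the lists and are not independent. The Aroclor1260 peak was the narrower of the pair against input in 97 pairs, as wide in 75 and wider in 61.

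**Figure D4:**
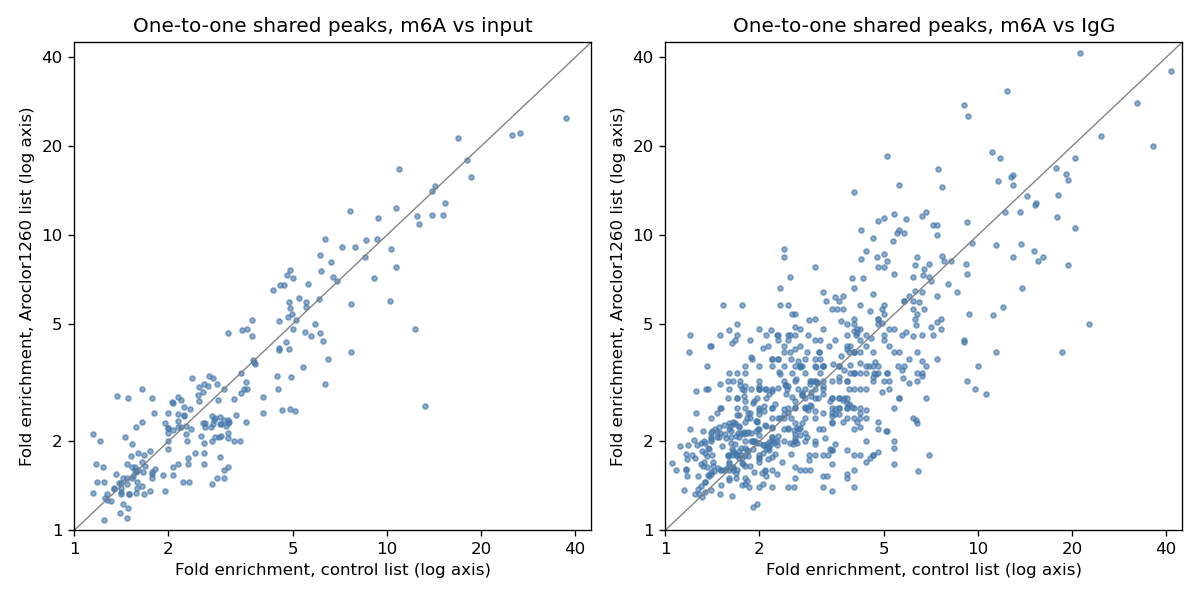
Fold enrichment in the Aroclor1260 list (y axis) and in the control list (x axis), both log scale, for each peak matched 1 to 1, against input (left, 233 pairs) and IgG (right, 707 pairs). The line marks equal folds; Spearman's rho was 0.871 against input and 0.648 against IgG.

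The loci with the highest Aroclor1260 folds against input were mostly in both lists. Jund, an AP-1 transcription factor, had the same span, chr8:70699047-70700322, with a fold of 24.9 after Aroclor1260 and 37.3 in control. Gid8, a subunit of the CTLH ubiquitin ligase, had 21.9 after Aroclor1260 and 25.2 in control. Agtr1a, the angiotensin II receptor, had 21.3 after Aroclor1260 and 16.9 in control. Hs6st1, a heparan sulfate sulfotransferase, had 16.8 after Aroclor1260 and 10.9 in control. Bmp2, the bone morphogenetic protein that liver endothelium supplies to control iron, had 15.7 after Aroclor1260 and 18.6 in control. Bhlhe40, a clock-linked repressor, had 14.7 after Aroclor1260 and 14.3 in control. Ubtd1 had 18.0 in both, and Herc2, a large ubiquitin ligase, had 14.1 after Aroclor1260 and 13.9 in control, with no IgG peak in either. The minus-strand identifier ENSMUSG00000080058 at Jund had 22.1 after Aroclor1260 and 26.7 in control. The tenth locus, Pik3ca, the catalytic subunit of a phosphoinositide 3-kinase, had 13.1 after Aroclor1260 at chr3:32462694-32462894 and no peak in either control list. It had no Aroclor1260 peak against IgG.

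Of the loci gained against input but not against IgG, the next by fold after Pik3ca had control peaks against IgG. Retreg1, a receptor for autophagy of the endoplasmic reticulum, had an input fold of 12.3 after Aroclor1260 and no control input peak, and IgG folds of 11.1 after Aroclor1260 and 9.20 in control. Mapk14, the p38 kinase, had 9.16 against input after Aroclor1260 and no control input peak, yet against IgG it had no Aroclor1260 peak and 2 control peaks of up to 21.4. Jade1, a subunit of histone acetyltransferase complexes, had 4 input peaks of up to 7.45 after Aroclor1260 and none in control, and IgG folds of up to 16.2 after Aroclor1260 and 10 in control. Msl2, a chromatin ubiquitin ligase, had 4 input peaks of up to 5.67 after Aroclor1260 and none in control, and IgG folds of up to 10 after Aroclor1260 and 7.40 in control.

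Among loci lost against input but not against IgG, those with the highest control folds had Aroclor1260 peaks against IgG. Apob, the backbone protein of lipoproteins made by liver, had no input peak after Aroclor1260 and 8 of up to 13.9 in control, the strongest at chr12:8007831-8009979. Against IgG, Apob had 5 peaks of up to 2.08 after Aroclor1260 and 6 of up to 10.8 in control. Ythdf3, an m6A reader, had no input peak after Aroclor1260 and 2 of up to 10.2 in control, and IgG folds of up to 20.1 after Aroclor1260 and 36.4 in control. Rbbp6, a ubiquitin ligase, had no input peak after Aroclor1260 and 6 of up to 9 in control, and IgG folds of up to 7.20 after Aroclor1260 and 11 in control. Nrp1, a co-receptor on endothelium, had no input peak after Aroclor1260 and 2 of up to 7.29 in control, and IgG folds of up to 7.20 after Aroclor1260 and 8.60 in control.

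Of the 168 loci with input peaks in both lists, 41 had more peaks after Aroclor1260, 79 the same number and 48 fewer. Golga4, a golgin, had 10 peaks after Aroclor1260 and 5 in control, and Afmid, a kynurenine pathway enzyme, had 6 after Aroclor1260 and 2 in control. Bcl9l, a Wnt co-activator, had 9 peaks after Aroclor1260 and 6 in control, and Rnf103 and Filip1l each had 5 after Aroclor1260 and 2 in control. In the other direction Emilin1, an elastic fibre protein, had 2 peaks after Aroclor1260 and 6 in control, and Rest, a transcriptional repressor, had 2 after Aroclor1260 and 5 in control. Pdp2, a pyruvate dehydrogenase phosphatase, had 3 peaks after Aroclor1260 and 6 in control, Msantd4 had 1 after Aroclor1260 and 4 in control, and Trim25 had 2 after Aroclor1260 and 4 in control. Against IgG, Golga4 had 11 peaks after Aroclor1260 and 12 in control, and Pdp2 had 5 after Aroclor1260 and 3 in control.

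The lists of this series say little of genes on the minus strand. Across all lists of the series 1512 identifiers had a peak, and 1349 lay on the plus strand, and 997 of these were at RefSeq genes known to be on that strand. Of the 163 identifiers on the minus strand, 79 were at genes of the plus strand. RefSeq lists 8729 protein-coding genes on the plus strand, 8762 on the minus strand and 4405 with no strand in the tables used. Of the 710 members of the pathway and marker lists, 93 of 271 on the plus strand had a peak in at least 1 of the 4 lists, and 3 of 266 on the minus strand. A list member on the minus strand without a peak is therefore not read as unmethylated, and the cause of this imbalance was not tested.

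**Figure D5:**
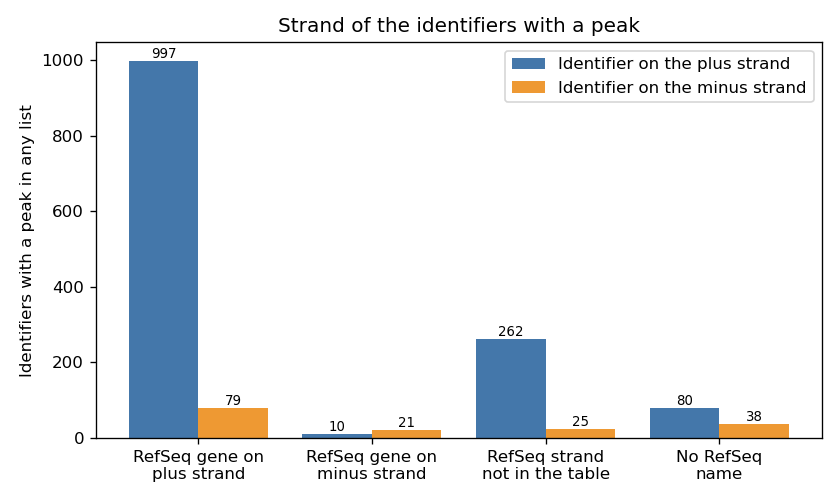
Number of identifiers with a peak, over all lists of the series (y axis, count), by the strand of the RefSeq gene at the same place (x axis), for identifiers on the plus and the minus strand. The 997 plus-strand identifiers at plus-strand genes exceed the 21 minus-strand identifiers at minus-strand genes.

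Among death receptor and TNF pathway genes, 5 of 31 members, 12 of them on the plus strand, had a peak in at least 1 of the 4 lists. The receptor Tnfrsf1a, the inhibitor Mcl1 and Dap were gained with both references, and the ligand Tnfsf10 was lost with both. Fas, the receptor for Fas ligand, had no input peak in either list and IgG folds of 3.80 after Aroclor1260 and 4.2 in control. Set against 1.78% of loci gained and 3.09% lost with both references, 3 gained and 1 lost of the 5 members with a peak is a description of a list chosen with these results known.

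Of the 31 glucose and insulin response genes, 14 of them on the plus strand, 6 had an input peak after Aroclor1260 and 3 in control, while 9 had an IgG peak after Aroclor1260 and 6 in control. G6pc and Txnip were gained with both references, where 1.78% of all loci were. With Igfbp1, 3 members were gained against input, where 20.8% of loci were, and 3 were gained against IgG, where 23.5% were. Igfbp1, an insulin-repressed binding protein of growth factors, had 1 input peak of 1.58 after Aroclor1260 and none in control, and IgG folds of 2.14 after Aroclor1260 and 1.71 in control. The FoxO factor Foxo1 had 4 input peaks in each list, with folds of up to 9.73 after Aroclor1260 and 6.36 in control. Trib1, a pseudokinase of lipid metabolism, had 6 input peaks of up to 4.68 after Aroclor1260 and 4 of up to 5.48 in control. Ppp1r3b, the glycogen-targeting subunit of a phosphatase, had 7.53 after Aroclor1260 and 6.14 in control. Of the 9 members with a peak in at least 1 of the 4 lists, none was lost with either reference. Over all loci 29.2% were lost against input and 23% against IgG.

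Apolipoprotein genes had fewer members with a peak after Aroclor1260 against input and equal numbers against IgG. Of 15 apolipoprotein genes, 3 had an input peak after Aroclor1260 and 6 in control, and 8 had an IgG peak in each. Apob, Apof and Apon were lost against input, where 29.2% of all loci were. Apof, an inhibitor of lipid transfer, had no input peak after Aroclor1260 and 2 of up to 2.22 in control, and IgG folds of 2.87 after Aroclor1260 and 2.74 in control. Apon had no input peak after Aroclor1260 and 7 of up to 3.00 in control, and IgG folds of 4.10 after Aroclor1260 and 6.20 in control. Apoa5, a triglyceride regulator, had 9.08 after Aroclor1260 and 7.17 in control, Apoa1 had 2.25 after Aroclor1260 and 2.28 in control, and Apoe had 2.31 after Aroclor1260 and 1.95 in control. Of 30 fatty acid oxidation and PPAR alpha target genes, none had an input peak after Aroclor1260 and 2 did in control, Slc27a2 with up to 2.09 and Cyp4a10 with 1.57. These were lost against input, where 29.2% of all loci were. Against IgG 5 of the 30 genes had a peak in each.

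Targets of the receptors that PCBs act on carried few peaks. Of 24 CAR target genes, 15 of them on the plus strand, 2 had an input peak after Aroclor1260 and none in control. Both were thus gained against input, where 20.8% of all loci were. Por, the reductase that passes electrons to cytochrome P450 enzymes, had 4 input peaks of up to 1.66 after Aroclor1260, and IgG folds of up to 4.2 after Aroclor1260 and 3.6 in control. Cyp2c29, a cytochrome P450 of a family with near-identical members whose counting is uncertain, had 2 input peaks of up to 1.58 after Aroclor1260, and IgG folds of 2.84 after Aroclor1260 and 2.10 in control. The other exposures had input peaks at both genes. Por had 6 after PCB126 and 5 after the combination, and Cyp2c29 had 3 and 5. Of 12 PXR target genes, 3 of them on the plus strand, none had an input peak after Aroclor1260, and Aldh1a1 had 1 of 1.71 in control and IgG folds of 1.98 after Aroclor1260 and 2.05 in control. None of 13 AhR target genes, 4 of them on the plus strand, had a peak in at least 1 of the 4 lists.

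Transcription factors of hepatocytes had input peaks at 3 of 29 genes after Aroclor1260 and 5 in control, and IgG peaks at 6 after Aroclor1260 and 9 in control. Onecut2 and Foxq1, the latter by its plus-strand identifier alone, were lost with both references, where 3.09% of all loci were. They were the 2 members lost against input, where 29.2% of loci were, and 4 members were lost against IgG, where 23% were. Cebpb, a factor of the acute phase and of gluconeogenesis, had an input fold of 2.64 after Aroclor1260 and 13.2 in control, while its IgG fold was 25.3 after Aroclor1260 and 9.31 in control, so that the order of the lists turned with the reference. Cebpa had 2.54 after Aroclor1260 and 5.08 in control, and Ppara, the fasting-induced fatty acid receptor, had 3 peaks of up to 9.63 after Aroclor1260 and 1 of 8.59 in control. Among 29 immediate early and AP-1 genes, 7 had an input peak after Aroclor1260 and 6 in control, and 7 had an IgG peak in each. Egr1 was the gain against input, with 3 peaks of up to 4.10 after Aroclor1260, and its IgG folds were 8.80 after Aroclor1260 and 5.10 in control. Klf9 had 11.6 after Aroclor1260 and 12.5 in control, and Myc had 7.72 after Aroclor1260 and 8.93 in control.

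The m6A machinery itself had few peaks. Of 26 writer, reader and eraser genes, 8 of them on the plus strand, none had an input peak after Aroclor1260 and only Ythdf3 had one in control. Ythdf3 was thus lost against input, where 29.2% of all loci were, and had IgG peaks in both lists. Against IgG, Zc3h13, which holds the writer in the nucleus, had 6 peaks of up to 5.30 after Aroclor1260 and 7 of up to 10.8 in control. Ythdc1, the nuclear reader, had no IgG peak after Aroclor1260 and 2 of up to 3.6 in control. It was thus lost against IgG, where 23% of all loci were. Ythdc1 had 7 input peaks after PCB126 and 2 after the combination.

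Secreted plasma proteins were nearly even against input. Of 25 coagulation genes, 4 had an input peak in each list and 9 an IgG peak in each. F5 had 4 input peaks of up to 2.22 after Aroclor1260 and none in control, and F7 had none after Aroclor1260 and 1 of 1.93 in control. Of all loci, 20.8% were gained and 29.2% lost against input. Against IgG the F7 call was the opposite, with 1 peak of 3.6 after Aroclor1260 and none in control, while F5 had IgG peaks in both lists. The fibrinogen chain gene Fga had 12.6 after Aroclor1260 and 11 in control. Of 48 acute phase, complement and plasma carrier genes, 3 had an input peak in each list, Crp with 8.96 after Aroclor1260 and 10.3 in control, Mbl1 with 4.08 after Aroclor1260 and 4.5 in control, and Cp with 1.5 after Aroclor1260 and 2.32 in control. Against IgG, 9 of the 48 had a peak after Aroclor1260 and 12 in control. There 1 member was gained, where 23.5% of loci were, and 4 were lost, where 23% were. Of 25 unfolded protein response genes, 3 had an input peak after Aroclor1260 and 4 in control. Hspa5, the endoplasmic reticulum chaperone BiP, had 3.31 after Aroclor1260 and 4.93 in control, and Dnajb12 had no input peak after Aroclor1260 and 1 of 4.79 in control, but 4 IgG peaks of up to 8.32 after Aroclor1260 and 3 of up to 4.22 in control. Of 27 bile acid genes, Slco1b2 was lost with both references, where 3.09% of all loci were. Abcb4, the phospholipid exporter, had 2 input peaks of up to 1.56 after Aroclor1260 and none in control. It was thus gained against input, where 20.8% of loci were. Against IgG, Abcb4 had 8 peaks of up to 3.1 after Aroclor1260 and 9 of up to 3.5 in control. PCB126 and the combination each had 8 input peaks at Abcb4.

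Cell type markers were read as a check of the tissue. Of 12 hepatocyte markers, 6 had a peak in at least 1 of the 4 lists, 1 against input after Aroclor1260 and 4 in control, and 4 against IgG in each. The 3 members lost against input were Apob, Cyp2f2 and Tat, where 29.2% of all loci were lost. Hnf4a, a defining hepatocyte factor, had 5 IgG peaks in each list, of up to 4.77 after Aroclor1260 and 3.52 in control. Of 20 liver endothelial markers, 3 had an input peak after Aroclor1260 and 4 in control, while 5 had an IgG peak after Aroclor1260 and 4 in control. Here Nrp1 was lost against input, where 29.2% of loci were, and Cdh5 was gained against IgG, where 23.5% were. Of 16 Kupffer cell and macrophage markers only Cd5l had a peak, against IgG, with 2.50 after Aroclor1260 and 2.20 in control. Of 13 stellate cell markers only Dcn had one, in the control IgG list with 2.20. The 8 cholangiocyte and 12 lymphocyte markers were at 0 in all 4 lists. A gene without m6A gives no peak however much it is expressed, so these counts do not measure the share of a cell type.

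Several list members without an input peak differed between the IgG lists and were picked out after their values were seen. Egfr, the epidermal growth factor receptor, had 10 IgG peaks of up to 11.1 after Aroclor1260 and none in control. Cyp27a1, an enzyme of the alternative bile acid pathway, had 7 of up to 6.00 after Aroclor1260 and none in control, and Cdh5, the endothelial cadherin, had 5 of up to 4.2 after Aroclor1260 and none in control. Gclc, the rate-limiting enzyme of glutathione synthesis, had 4 of up to 3.25 after Aroclor1260 and none in control. Masp2, a protease of the lectin pathway of complement, had none after Aroclor1260 and 4 of up to 7.70 in control. The background of these calls was 23.5% of loci gained and 23% lost against IgG.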

How the data were processed

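The authors deposited 8 lists of peaks, named for the caller MeTPeak, 1 per treatment and reference, and the 4 of Aroclor1260 and vehicle control were analysed, with the other 4 beside them. The genome build was mm10 and the tools named were BWA 0.7.17, Trimmomatic, FastQC 0.10.1 and bcl2fastq 2.20.0.422, per the submitters' processing notes. No setting of the caller is stated in the sources used here. Per the file headers each peak had a p-value, the log10 of the p-value and of the false discovery rate, and a fold enrichment, a linear ratio, all computed by the authors. Depth is unknown, and no count table was used, so no model across genes was fitted.

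Coordinates are mm10, counted from 1. Identifiers were named by position and strand from RefSeq tables of GRCm38.p6, where a gene held at least 80% of the exonic peak bases: 1383 of 1512 were named, and 1488 loci resulted. Strands came from the RefSeq promoter table, and 24 loci joined more than 1 identifier. Overlaps were computed with Python 3.11.15 and pandas 2.3.3, tested on simulated spans, and intervals are 95% Wilson intervals or, for differences of shares of the same peaks, intervals from discordant peaks. Named loci were those gained or lost with both references, the 10 highest input folds after Aroclor1260, the 5 highest gained and lost against input alone, the 5 largest differences in peak number each way, and list members with an input peak. Of these, 1 locus and the sequence of 1 transcript start are not reported here. The gene lists and these rules were chosen with earlier results of these data known. Alternatives were the reference, overlap rule, strand, thresholds on false discovery rate and fold, equal list lengths and naming.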

Additional observations from a re-analysis of the deposited data

How the results depend on the processing

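The share of control peaks found after Aroclor1260, 50%, was 56.8% against IgG, 35.3% with a reciprocal overlap of 50%, 54.7% for spans within 200 bp, 54.5% with equal numbers of peaks per list by p-value and 63.3% when counted over single identifiers. It was 54.2% with equal numbers by fold, an alternative chosen after seeing the data. The share of Aroclor1260 peaks absent from the control list, 36.4%, was 41.1% against IgG, 56.7% with the reciprocal overlap, 25.4% at a fold of at least 2, 43.3% with equal numbers by p-value, 29.6% over identifiers and 42.9% with equal numbers by fold. Loci gained, 70, numbered 191 against IgG and 36 at a fold of at least 2, and loci lost, 98, numbered 187 against IgG. Of loci gained with both references, 15, there were 9 at a fold of at least 2, of which 8 were among the 15. Of loci lost with both, 26, there were 11 at a log10 false discovery rate of at most -5, 6 of them among the 26, and 15 with equal numbers by p-value, all 15 among the 26. At that false discovery rate 12 loci were gained with both, 5 of them among the 15. The difference in the share of control peaks found turned round with equal numbers by p-value, to 24.1 points for Aroclor1260 minus PCB126 and 30.4 for Aroclor1260 minus the combination. With equal numbers by fold it was -7.71 (-13.1 to -2.34) and -6.52 (-11.8 to -1.23). The cause of these shifts was not tested. No paired analysis was possible because the lists used hold 1 set of peaks per treatment and no value for a single library, and for the same reason no replicate could be left out.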

Other observations

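By chromosome, the share of control input peaks found after Aroclor1260 ran from 21.6% of 37 on chromosome 7 and 27.3% of 44 on chromosome 13 to 77.1% of 35 on chromosome 1 and 79.2% of 24 on chromosome 15. Peaks cluster in genes, so a few loci set such shares: on chromosome 13, Hivep1, a zinc finger gene, had no Aroclor1260 input peak and 11 in control. Against IgG, both lists held Hivep1 peaks. Chromosome 4 held 33 Aroclor1260 and 16 control input peaks. Of these, Ahdc1 and Aldh1b1 had 5 each after Aroclor1260 and none in control, and Paqr7 had 4 after Aroclor1260 and none in control. Against IgG, both lists held peaks at Ahdc1, Aldh1b1 and Paqr7.

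All peaks of an identifier had the same false discovery rate at 42 of the 133 identifiers with several Aroclor1260 input peaks and at 58 of the 157 in control.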
